A study of Mus musculus with 26 samples.

Results

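The genes described here are 10 genes of insulin and insulin-like growth factor (IGF) signalling, chosen by name and found by gene symbol and identifier in the deposited count tables. They are the ligand Igf1, the IGF-binding proteins Igfbp2, Igfbp3, Igfbp4 and Igfbp5, the receptors Insr, Igf1r and Insrr, and the receptor substrates Irs1 and Irs2. They make up 10 of the 57186 genes in the table of the Fgf9 deletions, and all 10 had enough counts to be tested in every comparison. The study sequenced polyadenylated RNA from the gonads of XY mouse embryos at stage E13.5, with 26 samples. Wild type (WT) had 3 samples, and the Fgf9 genotypes had 3 (Δ306), 6 (Δ225), 4 (Δ104) and 6 (Δ93). A knockout of Meis1 (Meis1 KO) had 4. The gonads were dissected away from the mesonephros, the embryonic kidney beside them. The boundaries of the deletions, the strain, the zygosity and the litters are not given in the sources used here, and the labels name "biol rep" samples for Δ225, Δ104, Δ93 and Meis1 KO but only "rep" for WT and Δ306. The p-values below therefore measure the spread between these samples, which may in part be technical.

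Insulin and the IGFs bind a small family of receptor tyrosine kinases. The insulin receptor (Insr) and the IGF receptor (Igf1r) phosphorylate adaptor proteins such as Irs1 and Irs2, which recruit phosphoinositide 3-kinase and so activate the kinase Akt. Insrr, the insulin receptor-related receptor, belongs to the same family. The secreted binding proteins hold IGFs in the extracellular space, where they can block or prolong access to the receptor. In the mouse, XY gonads that lack Insr, Igf1r and Insrr together do not form testes but develop as ovaries, which is why the family is known in sex determination. Fgf9 encodes a secreted growth factor made by Sertoli cells, the supporting cells of the testis, and Meis1 encodes a homeobox transcription factor.

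Promoter sequences are shown for the 3 genes of the set that were called against WT in a deletion (Igf1, Igfbp3 and Irs2) and for Igfbp2, which had the largest called difference between deletions after Insrr. They are the 150 bases before the start given by RefSeq on GRCm38.p6, the build named mm10 in the submitters' processing notes, each read 5′ to 3′ on the gene's strand. Capitals mark matches on either strand to 5 short motifs, whose letters are given after the sequences.
Igf1, chr10:87860961-87861110, plus strand: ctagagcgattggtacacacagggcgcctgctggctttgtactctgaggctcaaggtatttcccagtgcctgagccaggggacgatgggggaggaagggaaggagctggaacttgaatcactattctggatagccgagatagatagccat
Igfbp2, chr1:72824330-72824479, plus strand: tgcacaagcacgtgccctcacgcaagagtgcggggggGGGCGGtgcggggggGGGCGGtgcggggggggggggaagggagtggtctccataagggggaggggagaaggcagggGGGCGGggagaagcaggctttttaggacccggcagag
Igfbp3, chr11:7213924-7214073, minus strand: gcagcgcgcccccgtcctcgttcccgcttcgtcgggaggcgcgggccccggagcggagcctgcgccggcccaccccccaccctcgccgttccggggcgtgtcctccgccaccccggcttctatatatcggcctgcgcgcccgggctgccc
Irs2, chr8:11008930-11009079, minus strand: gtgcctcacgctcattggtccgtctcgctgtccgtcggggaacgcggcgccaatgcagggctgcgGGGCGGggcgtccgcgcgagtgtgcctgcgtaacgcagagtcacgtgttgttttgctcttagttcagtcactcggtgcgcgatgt
The Igfbp2 stretch held 3 GC boxes, beginning at positions −113, −98 and −37 from the start, and the Irs2 stretch held 1, at −85. The Igf1 and Igfbp3 stretches held no match to any of the 5 motifs. A second RefSeq start of Igfbp2 had no match. The GC box was searched as GGGCGG and occurred in 28.6% of 32851 mouse promoter stretches of the same length. The TATA box was searched as TATAAA and occurred in 7.57% of them. The core bound by SOX factors was searched as AACAAT and occurred in 5.31%. The half-site of the gonadal nuclear receptor NR5A1 was searched as AAGGTCA and occurred in 2.31%. The forkhead core was searched as GTAAACA and occurred in 1.8%. No 2 of these motifs overlapped in the stretches shown. Of the other genes matched in the RefSeq table, Igf1r held 2 GC boxes and an NR5A1 half-site, Igfbp4 held a TATA box, and Irs1 and Igfbp5 held none. In all, 8 of the 10 genes matched. A match is a run of letters and not a shown binding site.

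The libraries of the deletion table held 11.6 to 53.4 M counts (median 36.7) and the 7 libraries of the table with Meis1 KO held between 35.5 and 51.7 M. CPM are counts per M of a library size scaled for composition (TMM). Fgf9 was at 9.20 to 9.84 CPM in WT, 2.17 to 2.94 in Δ306 and 2.29 to 4.75 in Δ93. It was called lower than WT in both deletions, with log2 fold changes of −1.94 and −1.63. It was at 2.72 to 6.97 CPM in Δ104 and 3.68 to 16.5 in Δ225, which were not called, and Meis1 was at 0.200 to 0.695 CPM in the KO against 62.0 to 109 in WT. The summed level of 12 Sertoli markers (among them Sox9, Amh and Fgf9 itself) was 2864 to 3268 CPM in WT, 528 to 1046 in Δ306, 558 to 1621 in Δ93, 593 to 2681 in Δ104 and 886 to 3053 in Δ225. That of 9 pre-granulosa markers (supporting cells of the ovary, such as Foxl2 and Fst) was 117 to 170 CPM in WT, 133 to 171 in Δ225, 118 to 978 in Δ104, 481 to 888 in Δ306 and 573 to 1286 in Δ93. That of 6 fetal Leydig markers (the steroid-producing cells) was 902 to 1555 CPM in WT, 39.8 to 91.3 in Δ306 and 50.1 to 314 in Δ93. Germ-cell markers summed to 14.7 CPM in WT replicate 1, against 471 and 707 in the other WT libraries, and to 149 in Δ104 replicate 3. Against the XY label, 9 of the 22 libraries of the deletion table had a Y-linked sum under 3.12 CPM (0.1 times the lowest WT value) or Xist above 1.85 CPM (10 times the highest WT value). These were Δ306 replicate 3, Δ225 replicates 1, 2 and 4, Δ104 replicate 3 and Δ93 replicates 3 to 6, and the called differences are also given without them. Δ225 replicates 1 and 2 met only the Xist condition (2.24 and 3.12 CPM), with Y-linked sums of 10.8 and 20.5 CPM. Δ93 replicate 4 met both, with a Y-linked sum of 0.0265 CPM and Xist at 6.42 CPM. The others met only the Y-linked condition, with Xist at 0.0765 to 0.671 CPM, against 0.0582 to 0.185 in WT. Most of the other 13 libraries were not at the WT level either. The Y-linked sum was 31.2 to 77.2 CPM in WT, and among the remaining libraries 11.2 and 11.7 in Δ306, 7.40 to 13.3 in Δ225, 3.96 and 6.60 in Δ93 and 5.16, 5.40 and 36.2 in Δ104. In Meis1 KO it was 3.67 to 15.8 CPM, against 33.2 to 81.5 for WT in the same table. By the test 4 of 4 Y-linked genes were lower in Δ93 than in WT and 1 of 4 in Meis1 KO. WT and Δ306 share one wording of labels and processing notes and the other groups another, so in comparisons across those sets the genotype and any difference in preparation cannot be told apart.

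In WT gonads the binding proteins were the most abundant of the 10 genes and Insrr the least. Levels between genes are compared per kilobase of exon. Igfbp5 stood at 270 ± 58.6 CPM per kb (SD, n = 3), Igfbp4 at 147 ± 18.6, Igfbp2 at 71.7 ± 35.8 and Igfbp3 at 70.1 ± 10.3. The receptor Igf1r followed at 8.85 ± 1.62 CPM per kb, ahead of Irs2 at 7.64 ± 0.399, Irs1 at 4.35 ± 0.635, Insr at 3.92 ± 1.23 and Igf1 at 3.59 ± 0.536. Insrr was at 0.192 ± 0.120 CPM per kb. Going down this order, the 3 libraries of one gene overlapped those of the next for Igfbp2 and Igfbp3, Igf1r and Irs2, Irs1 and Insr, and Insr and Igf1. The other neighbours did not overlap. Igfbp2 (chromosome 1, 72824503 to 72852474, plus strand, GRCm38, GENCODE M21) and Igfbp5 (72857932 to 72874884, minus strand) lie tail to tail, with 5.46 kb between their ends.

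**Figure D1:**
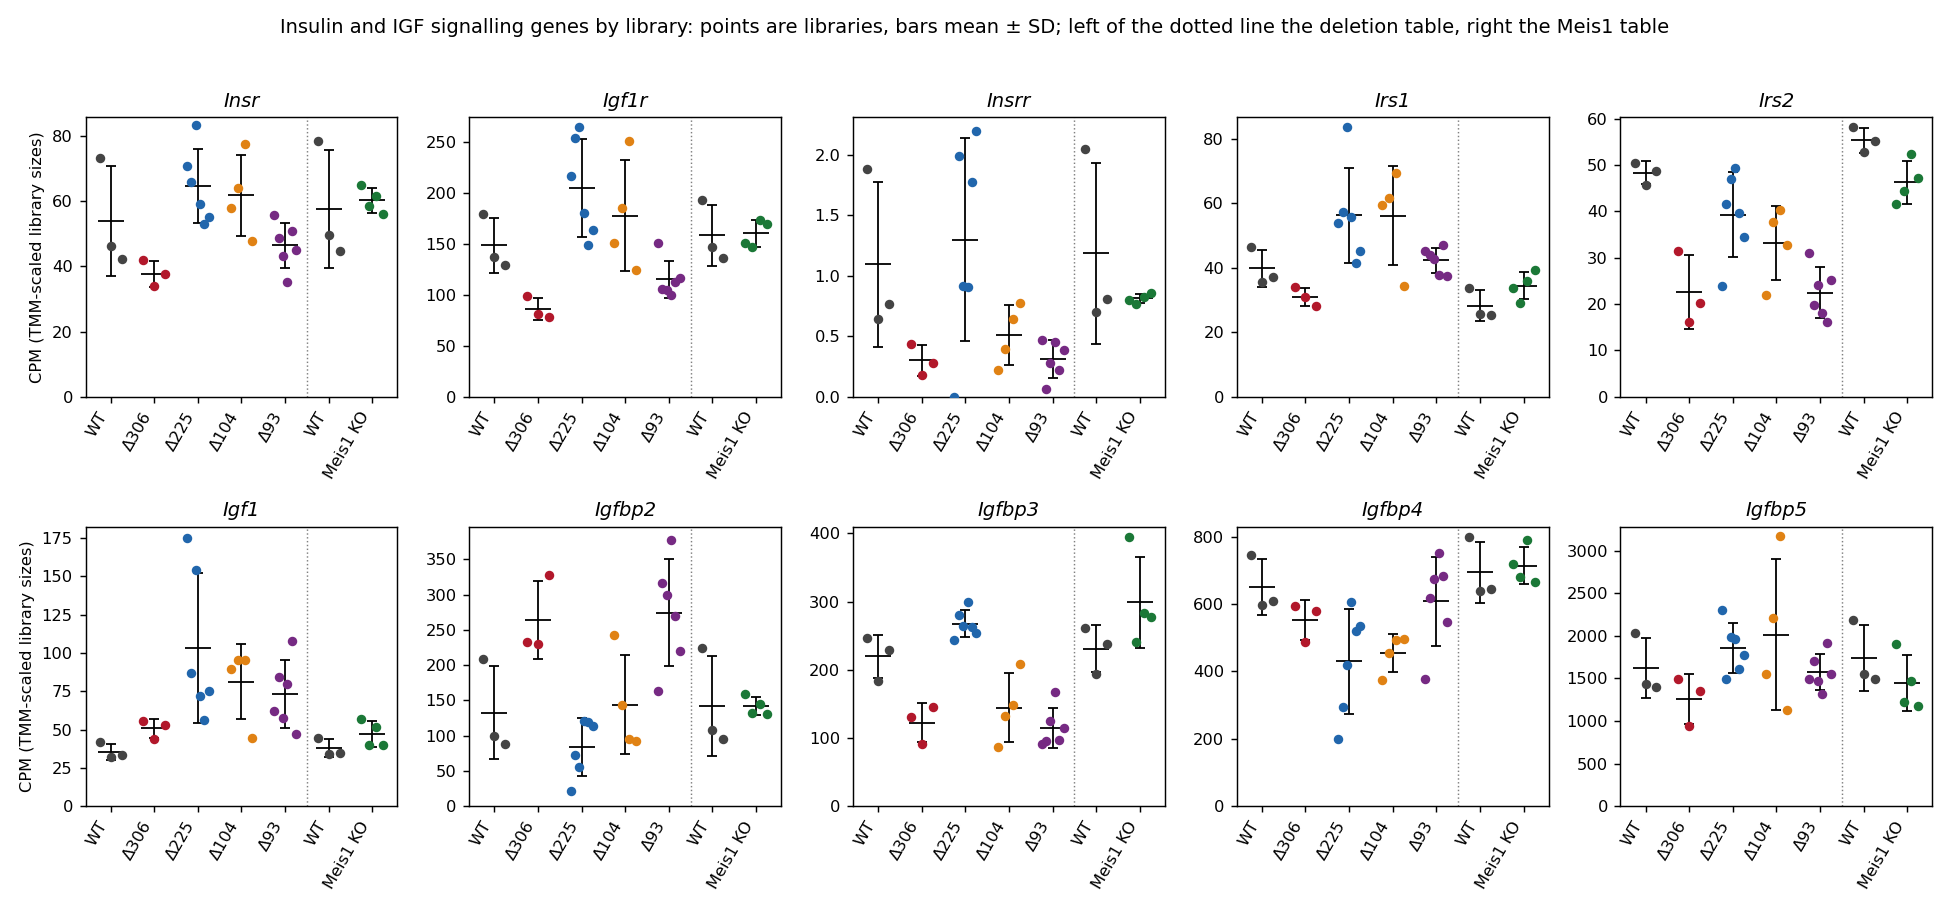
Levels of the 10 genes in every library. The vertical axes give CPM on TMM-scaled library sizes from 0, points are libraries in replicate order, and bars are the mean ± SD of each group. Right of the dotted line stand the Meis1 table's WT and Meis1 KO. Irs2 was at 45.6 to 50.5 CPM in WT and at or below 31.4 CPM in all Δ306 and Δ93 libraries.

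The comparison of each deletion with WT addresses what the loss of sequence at Fgf9 changes in the XY gonad. Against WT, Irs2 fell about 2-fold in Δ306 and in Δ93, Igfbp3 fell in Δ93 and Igf1 rose in Δ93. A difference is called here at an adjusted p under 0.05 over all genes tested (edgeR's quasi-likelihood test). In Δ306, 1 of the 10 genes was called, and it was lower, against 6.43% of all 22941 genes (2.96% higher and 3.46% lower). In the authors' smaller table, which holds only WT and Δ306, it was 4 of 10, where 3101 of all genes were called. In Δ93, 3 of the 10 genes were called, 1 higher and 2 lower, against 14.1% of all genes (7.23% higher and 6.84% lower). DESeq2 called 3 in Δ306 and 4 in Δ93, where it called 2717 and 4567 of all genes. Without the libraries against the XY label 0 of the 4 differences called by edgeR were called. That fit kept only replicates 1 and 2 of Δ306 and of Δ93, and it called 46 and 4 of all genes in these comparisons. In Δ225 and in Δ104, 0 of 10 were called, against 0.209% and 0.0610% of all genes. An unadjusted p under 0.05 was reached by 4 of the 10 genes in each of them, against 16.1% and 15.7% of all genes. DESeq2 called 1 in Δ225 and 0 in Δ104, where it called 813 and 611 of all genes. The median log2 fold change of the 10 genes was −0.44 in Δ306, 0.27 in Δ225, 0.16 in Δ104 and −0.15 in Δ93, where the medians of all genes were 0.08, 0.04, 0.06 and 0.06. The libraries of Δ306 and WT did not overlap for 9 of the 10 genes, 7 of them lower in Δ306, against 37.6% of all genes. The 4 comparisons share the same WT libraries.

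Igf1 (ENSMUSG00000020053, chromosome 10, 87858265 to 87937042), the ligand of Igf1r, lay above WT in every library of every deletion. WT libraries had 41.6, 31.8 and 33.2 CPM. Δ306 libraries had 55.6, 43.9 and 53.0 CPM, and Δ104 libraries had 89.5, 95.3, 95.4 and 44.6 CPM. In the 6 Δ225 libraries Igf1 ran from 56.0 CPM over a median of 80.9 to 175, and in the 6 Δ93 libraries from 47.3 over 71.0 to 108. The lowest library of each deletion thus lay above the highest of WT. For scale, libraries did not overlap with WT at 37.6% of all genes in Δ306, 10.1% in Δ225, 18.1% in Δ104 and 24.7% in Δ93. On the log2 scale Igf1 rose in Δ93 by 1.04 (SE 0.34, adjusted p 0.0420), or 2.06-fold. The uncalled log2 values were 1.53 (SE 0.34, adjusted p 0.0640) in Δ225, 1.19 (SE 0.36, adjusted p 0.149) in Δ104 and 0.52 (SE 0.37, adjusted p 0.449) in Δ306. Leaving out any 1 of the WT replicates, or Δ93 replicate 2, 4 or 5, ended the call in Δ93, and the largest adjusted p over all alternatives was 0.157. It was 1.02 (adjusted p 0.153) without the libraries against the XY label. DESeq2 called the difference in Δ225 as well (1.57, adjusted p 0.00131), but with only the 3 deepest Δ225 libraries it was 0.92 and not called by edgeR (adjusted p 0.151).

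Igfbp3 (ENSMUSG00000020427, chromosome 11, 7206086 to 7213923), the main carrier of IGFs in serum, was lower in Δ93 than in WT. WT libraries had 246, 184 and 229 CPM, and Δ93 libraries ran from 90.6 over a median of 105 to 167. All 6 Δ93 libraries lay below all 3 of WT. The log2 value of −0.94 (SE 0.21, adjusted p 0.00642) is 1.91-fold lower, and it stayed called when any 1 library was left out. Without the libraries against the XY label it was −1.26 with an adjusted p of 0.0612. In Δ306 the libraries had 131, 90.9 and 146 CPM, again all below WT. That difference of −0.84 (SE 0.25, adjusted p 0.0509) missed the threshold, and DESeq2 called it (adjusted p 0.0193). Δ104 libraries had 86.9, 132, 149 and 209 CPM and overlapped WT, while the 6 Δ225 libraries ran from 244 over 263 to 300.

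Igfbp2 (ENSMUSG00000039323), a binding protein of fetal tissues, showed the opposite order. WT libraries had 208, 100 and 88.8 CPM, with replicate 1, the library of the lowest germ-cell sum, well above the others. Δ306 libraries had 233, 230 and 327 CPM, and Δ93 libraries ran from 163 over a median of 284 to 378. Δ104 libraries had 243, 144, 95.5 and 93 CPM, and Δ225 libraries ran from 21.6 over 93.3 to 121. Against WT no difference was called, with 0.99 in Δ306 (SE 0.48, adjusted p 0.235), 1.05 in Δ93 (SE 0.44, adjusted p 0.113), 0.12 in Δ104 and −0.65 in Δ225. Without WT replicate 1 and Δ104 replicate 3 the values in Δ306 and Δ93 were 1.47 and 1.52 (adjusted p 0.132 and 0.0725).

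Igfbp4 (ENSMUSG00000017493, chromosome 11, 99041244 to 99054392), a binding protein that inhibits IGF action until it is cleaved, had 745, 596 and 610 CPM in WT. Δ104 libraries had 375, 454, 492 and 495 CPM, all below WT, and Δ225 libraries ran from 200 over a median of 470 to 606. The log2 fold changes of −0.52 and −0.60 were not called (adjusted p 0.359 and 0.271). Igfbp5 (ENSMUSG00000026185), which binds IGFs and extracellular matrix, had 2030, 1439 and 1403 CPM in WT. Its libraries overlapped those of WT in all 4 deletions, with log2 fold changes of −0.37 to 0.31. Across the Δ104 libraries Igfbp5 ran from 1128 to 3167 CPM.

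Igf1r (ENSMUSG00000005533, chromosome 7, 67952827 to 68233668) had 180, 137 and 129 CPM in WT and 98.6, 81.4 and 78.3 CPM in Δ306. All Δ306 libraries lay below all WT libraries. At −0.79 on the log2 scale (SE 0.24, adjusted p 0.0549) Igf1r missed the threshold. It was called in the authors' smaller table (−0.71, adjusted p 0.0224), as were Igf1 (0.59, adjusted p 0.0342) and Igfbp3 (−0.78, adjusted p 0.0331). Insr (ENSMUSG00000005534, chromosome 8, 3122061 to 3279617) had 73.3, 46.1 and 42.2 CPM in WT and 41.8, 33.9 and 37.5 CPM in Δ306. That was −0.51 on the log2 scale, not called (SE 0.22, adjusted p 0.166). In Δ93, Insr (−0.21) and Igf1r (−0.37) overlapped WT and were not called. Insrr (ENSMUSG00000005640, chromosome 3, 87796951 to 87816101), a receptor not known to bind insulin, rested on 0 to 90 counts per library. It had 1.88, 0.641 and 0.764 CPM in WT and 0.439, 0.178 and 0.282 CPM in Δ306, and ran from 0.0632 over a median of 0.332 to 0.471 in Δ93. Those libraries lay below WT, but neither −1.88 (adjusted p 0.186) nor −1.82 (adjusted p 0.0699) was called. DESeq2 called the difference in Δ93 (adjusted p 0.0298), as did a fit of the 2 groups alone (adjusted p 0.0379).

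Irs2 (ENSMUSG00000038894, chromosome 8, 10984681 to 11008458), an adaptor of both receptors, fell in 2 deletions. WT libraries had 50.5, 45.6 and 48.8 CPM, the narrowest relative spread of the 10 genes in WT. Δ306 libraries had 31.4, 16.1 and 20.3 CPM, and Δ93 libraries ran from 16.2 over a median of 22 to 31.1. Both groups lay wholly below WT. In Δ93 it fell by 1.11 on the log2 scale (SE 0.24, adjusted p 0.00435), or 2.15-fold, and it stayed called when any 1 library was left out. In Δ306 it fell by 1.1 (SE 0.28, adjusted p 0.0267), or 2.14-fold. Leaving out any 1 of the WT replicates, or Δ306 replicate 2 or 3, ended this call. Without the libraries against the XY label the values were −0.96 in Δ93 (adjusted p 0.104) and −1.03 in Δ306 (adjusted p 0.125). Δ104 libraries, at 22, 37.6, 40.3 and 32.7 CPM, also lay below WT, where −0.54 was not called (SE 0.26, adjusted p 0.316). Irs1 (ENSMUSG00000055980, chromosome 1, 82233101 to 82291416), the other main adaptor, had 46.4, 35.7 and 37.2 CPM in WT and 33.9, 30.8 and 28.2 CPM in Δ306. It was not called in any deletion against WT, with log2 fold changes of −0.36 to 0.50.

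**Figure D2:**
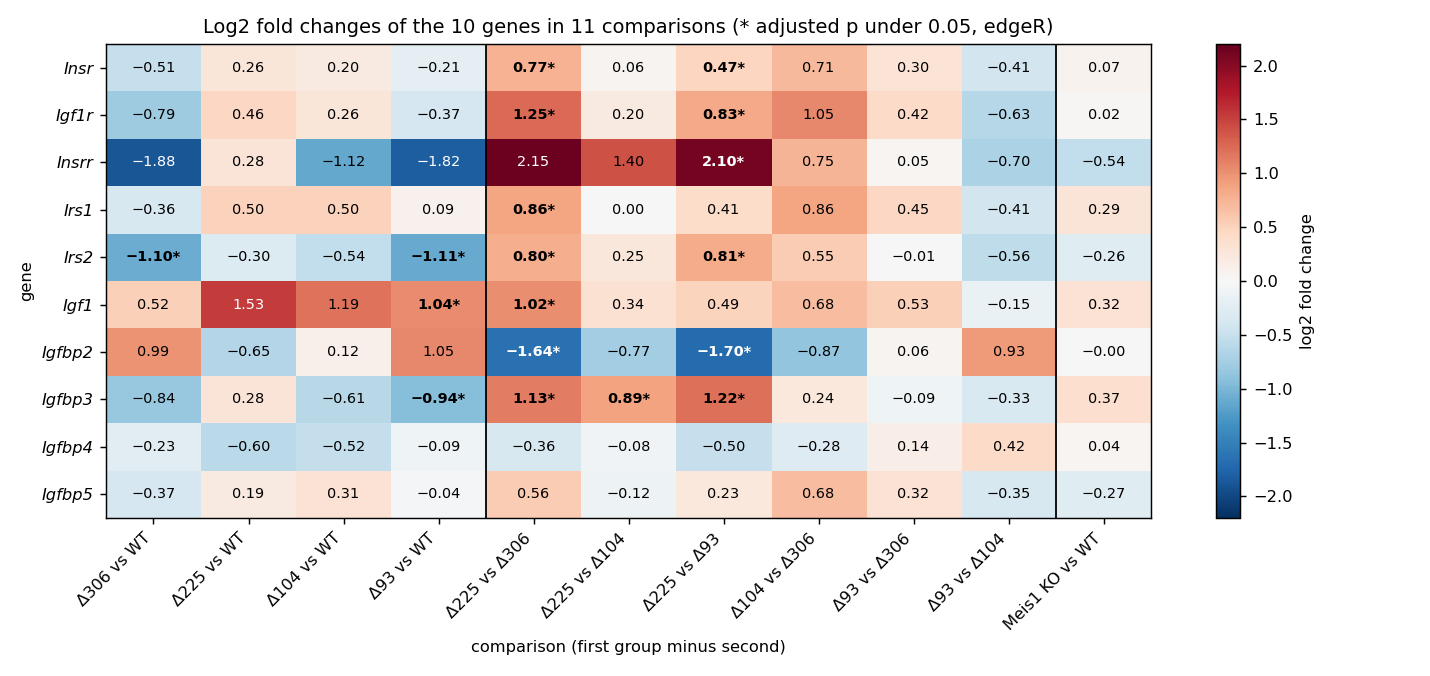
Log2 fold changes of the 10 genes (vertical axis) in the 11 comparisons (horizontal axis, first group minus second), coloured from blue (lower) to red (higher), with an asterisk where the adjusted p was under 0.05. Of 110 values 18 carry an asterisk, 13 of them in Δ225 against Δ306 or Δ93.

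Markers of other cells moved with these genes in Δ93 and Δ306. Against WT in Δ93, 9 of 9 pre-granulosa markers were called higher, and 5 of 6 fetal Leydig, 5 of 6 interstitial progenitor and 3 of 12 Sertoli markers (Fgf9, Ptgds and Sox8) lower. In Δ306 it was 6 of 9, 3 of 6, 4 of 6 and 1 of 12 (Fgf9). The interstitial progenitor sum, over genes such as Pdgfra and Tcf21, was 1463 to 1727 CPM in WT, 543 to 757 in Δ306 and 618 to 732 in Δ93. Of endothelial markers, 2 of 5 were lower in Δ93 and 1 of 5 in Δ306, and of muscle markers 1 of 5 was lower in Δ93. Of 8 germ-cell markers 2 were higher in Δ93 and 1 in Δ306. Of 4 macrophage and 6 blood markers 0 were called in either by edgeR, but blood sums were 52275 and 57998 CPM in Δ93 replicates 1 and 4, against 5244 to 8886 in the other Δ93 libraries and 13232 to 16268 in WT. No Sertoli, pre-granulosa or interstitial marker was at 0 in any library, and 1 fetal Leydig marker was at 0 in 5 libraries of these deletions. Mesonephric markers summed to 92.2 to 105 CPM in WT, 166 to 231 in Δ306 and 168 to 260 in Δ93. Of these 8 markers 2 were called higher and 1 lower in Δ93, and 1 was called higher in Δ306. In RNA of whole gonads, fewer cells of a type and less RNA per cell cannot be told apart, and the part of cell composition in these differences was not tested.

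**Figure D3:**
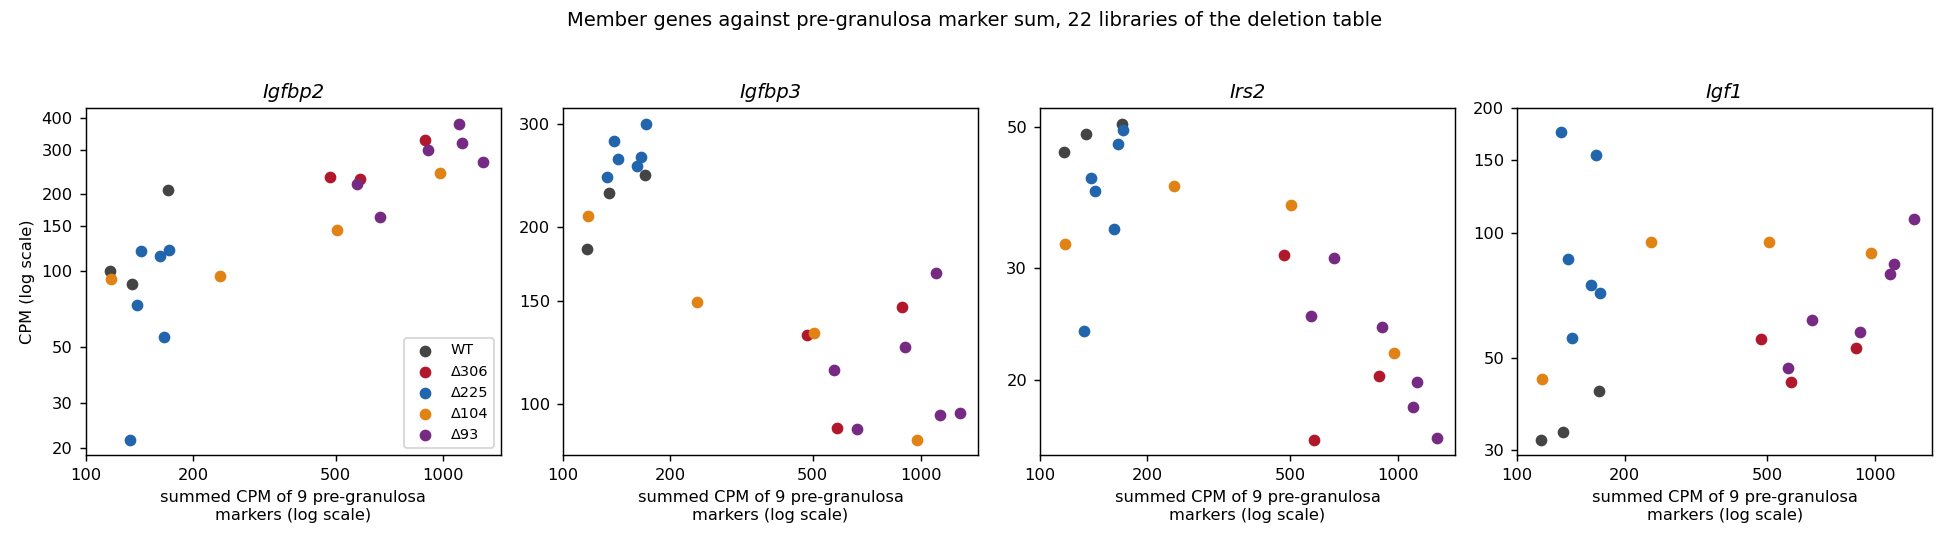
Igfbp2, Igfbp3, Irs2 and Igf1 (vertical axes, CPM, log scale) against the summed CPM of 9 pre-granulosa markers (horizontal axes, log scale) in the 22 libraries of the deletion table, coloured by genotype. The libraries of Δ306 and Δ93, with marker sums of 481 or more, had Igfbp2 of 163 CPM or more and Irs2 of 31.4 CPM or less. Δ104 replicate 1, at a sum of 978, also met these limits. Δ104 replicate 2, at a sum of 505, did not, with Igfbp2 of 144 CPM and Irs2 of 37.6 CPM. At low sums, WT replicate 1 (170) had Igfbp2 of 208 CPM and Δ225 replicate 1 (133) had Irs2 of 23.9 CPM. The 4 Δ104 libraries had marker sums from 118 to 978.

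The 4 Δ104 libraries differed from each other in markers and in these genes. Replicates 1 to 4 had pre-granulosa sums of 978, 505, 237 and 118 CPM and Sertoli sums of 593, 1026, 1808 and 2681 CPM. Igfbp3 in the same order was 86.9, 132, 149 and 209 CPM, and Igfbp2 was 243, 144, 95.5 and 93 CPM. Thus the library with the most pre-granulosa RNA had the most Igfbp2 and the least Igfbp3, and the library with the least had the reverse. The order of Irs2 was not the same, with 22 CPM in replicate 1 but 32.7 in replicate 4. Igf1 stood at 89.5, 95.3 and 95.4 CPM in replicates 1 to 3 and at 44.6 in replicate 4. Without replicate 4, Igf1 was called higher in Δ104 than in WT (1.39, adjusted p 0.0403). In that fit 528 of all genes were called, against 14 with replicate 4. The order over these 4 libraries is a description without a test.

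The comparisons between deletions address whether the deletions differ from each other. Δ225 stood apart from Δ306 and Δ93 in most of the 10 genes. Against Δ306, 7 of 10 genes were called (6 higher, 1 lower in Δ225), where 13.2% of all genes were called (6.47% higher, 6.74% lower). Against Δ93, 6 of 10 were called (5 higher, 1 lower), where 20.8% of all genes were (9.96% higher, 10.8% lower). Libraries did not overlap for 7 of the 10 genes against Δ306 and for 2 against Δ93, where 20.2% and 11% of all genes did not. The median log2 fold change of the 10 genes was 0.83 against Δ306 and 0.48 against Δ93, with all genes at −0.01 and 0.00. Without the libraries against the XY label 0 of these 13 differences were called, none changed sign, and 0 and 2 of all genes were called. Both comparisons share the 6 Δ225 libraries. In Δ225, 8 of 9 pre-granulosa markers were called lower than in Δ306 and 9 of 9 lower than in Δ93, while 5 of 6 and 6 of 6 fetal Leydig, 4 of 6 and 5 of 6 interstitial and 2 of 12 and 4 of 12 Sertoli markers were called higher. In both comparisons the Sertoli markers called higher included Fgf9 itself, the gene at the deleted locus. The part of these marker changes in the differences below was not tested.

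Among the binding proteins, Igfbp3 in Δ225 exceeded Δ306 by 1.13 on the log2 scale (SE 0.23, adjusted p 0.00359) and Δ93 by 1.22 (SE 0.18, adjusted p 1.23e-04). Its lowest Δ225 library, at 244 CPM, lay above the highest of Δ306 (146 CPM) and of Δ93 (167 CPM). Igfbp2 was 3.13-fold lower than in Δ306 (log2 −1.64, SE 0.40, adjusted p 0.0109) and 3.26-fold lower than in Δ93 (log2 −1.70, SE 0.35, adjusted p 0.00169). Its highest Δ225 library, at 121 CPM, lay below every library of both groups. Without Δ306 replicate 3 the difference from Δ306 was not called. With the libraries against the XY label left out, Igfbp3 was at 1.22 and 1.48 (adjusted p 0.121 and 0.110) and Igfbp2 at −1.27 and −1.32 (adjusted p 0.234 and 0.209). Igfbp4 and Igfbp5 were not called in either comparison, with −0.36 and 0.56 against Δ306 and −0.50 and 0.23 against Δ93.

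The receptors were higher in Δ225 as well. Igf1r ran from 149 CPM over a median of 199 to 265 in Δ225 and from 99.8 over 110 to 151 in Δ93. It was higher by 1.25 than in Δ306 (SE 0.22, adjusted p 0.00136), with no overlap of libraries, and by 0.83 than in Δ93 (SE 0.17, adjusted p 0.00181), where 1 Δ93 library at 151 CPM overlapped. Insr ran from 52.9 over 62.6 to 83.2 CPM in Δ225. It was higher by 0.77 than in Δ306 (SE 0.20, adjusted p 0.0132) and by 0.47 than in Δ93 (SE 0.15, adjusted p 0.0335). The first call was lost without Δ306 replicate 2 or 3, and the second without Δ225 replicate 2 or 3 or any 1 of Δ93 replicates 2 to 6. Insrr was higher by 2.10 than in Δ93 (SE 0.59, adjusted p 0.0145). In Δ225 replicate 1 it had 0 counts, a limit of 3 counts or 0.292 CPM by counting error alone, while the other 5 Δ225 libraries had 0.904 to 2.2 CPM. Against Δ306 its difference of 2.15 was not called (adjusted p 0.0691). In the fit that left out the libraries against the XY label, Igf1r was at 1.08 and 0.59 (adjusted p 0.121 and 0.315), Insr at 0.74 and 0.29 (adjusted p 0.218 and 0.654) and Insrr against Δ93 at 2.76 (adjusted p 0.179).

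Of the adaptors, Irs2 in Δ225 exceeded Δ306 by 0.80 (SE 0.25, adjusted p 0.0395) and Δ93 by 0.81 (SE 0.20, adjusted p 0.00669). Its 6 Δ225 libraries ran from 23.9 over a median of 40.5 to 49.4 CPM and overlapped both groups through the lowest, replicate 1. Irs1 was higher than in Δ306 by 0.86 (SE 0.21, adjusted p 0.0107), with 41.6 CPM or more in all Δ225 libraries and no overlap. The difference of 0.41 from Δ93 was not called (adjusted p 0.0785). Igf1 was higher than in Δ306 by 1.02 (SE 0.34, adjusted p 0.0486). Leaving out Δ306 replicate 3 ended the call of Irs1. The call of Irs2 against Δ306 ended without Δ306 replicate 2 or 3 or any 1 of Δ225 replicates 2 to 5, and that of Igf1 without any 1 of the Δ306 replicates or of Δ225 replicates 1 to 3. When the libraries against the XY label were left out, Irs2 was at 0.75 and 0.68 (adjusted p 0.266 and 0.308), Irs1 against Δ306 at 0.80 (adjusted p 0.247) and Igf1 against Δ306 at 0.92 (adjusted p 0.304).

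The 6 Δ225 libraries formed 2 sets by depth, replicates 1 to 3 with 11.6, 23.3 and 20.2 M counts and replicates 4 to 6 with 46.8, 43.0 and 41.3 M. Igf1 was 175, 86.6 and 154 CPM in the first set and 71.8, 56.0 and 75.2 in the second. Igfbp2 was 21.6, 73.1 and 54.9 CPM in the first and 121, 120 and 114 in the second. Igfbp4 was 200, 295 and 420 CPM against 606, 521 and 536. Igf1r was 217, 254 and 265 CPM against 181, 149 and 164, and Insr was 70.9, 66.0 and 83.2 CPM against 59.1, 52.9 and 55.2. The sets did not overlap in these genes. They overlapped in the other genes of the set, Insrr, Irs1, Irs2, Igfbp3 and Igfbp5. Irs1, for one, was 53.9, 57.2 and 83.6 CPM against 55.7, 41.6 and 45.3. The share of all genes that separated by set was not counted, so the separation cannot be read as particular to these genes. The Sertoli sums of the sets were 886, 1409 and 1193 CPM against 3053, 3039 and 2554. With only the second set, a choice made after the depths were seen, 6 of the 10 genes were called against Δ306 and 4 against Δ93. Of all genes 4076 and 3595 were then called, against 3030 and 4767 with all 6 libraries. Igfbp2 was then −1.15 against Δ306 and −1.22 against Δ93 (adjusted p 0.0366 and 0.0189), and Igfbp3 was 1.15 and 1.24. The calls that were lost were Igf1 against Δ306 (0.42, adjusted p 0.314), Insr against both (0.57 and 0.26, adjusted p 0.0597 and 0.307) and Igf1r against Δ93 (0.51, adjusted p 0.0555), and Insrr against Δ306 was gained (2.45, adjusted p 0.0149).

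Few differences among the remaining deletions were called. Δ225 against Δ104 gave 1 call of 10, Igfbp3, higher by 0.89 (SE 0.21, adjusted p 0.0472), where 0.645% of all genes were called, and it was lost without any 1 of the 10 libraries but Δ104 replicate 4. Without the libraries against the XY label it was 0.88 (adjusted p 0.533). By edgeR 0 of the 10 genes were called in Δ104 against Δ306, in Δ93 against Δ306 and in Δ93 against Δ104, where 0.0654%, 0.0785% and 0.0523% of all genes were. Unadjusted, 4, 1 and 5 of the 10 genes had a p under 0.05, against 11.1%, 9% and 14.5% of all genes. DESeq2 called 2, 0 and 0, where it called 416, 179 and 550 of all genes. The 2 were Igf1r (1.05, adjusted p 0.00485) and Irs1 (0.86, adjusted p 0.0209), both higher in Δ104 with no overlap of libraries, as at 11.2% of all genes. Irs2, Igfbp2 and Igfbp3 differed between Δ93 and Δ306 by −0.01 (SE 0.24), 0.06 (SE 0.42) and −0.09 (SE 0.22).

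**Figure D4:**
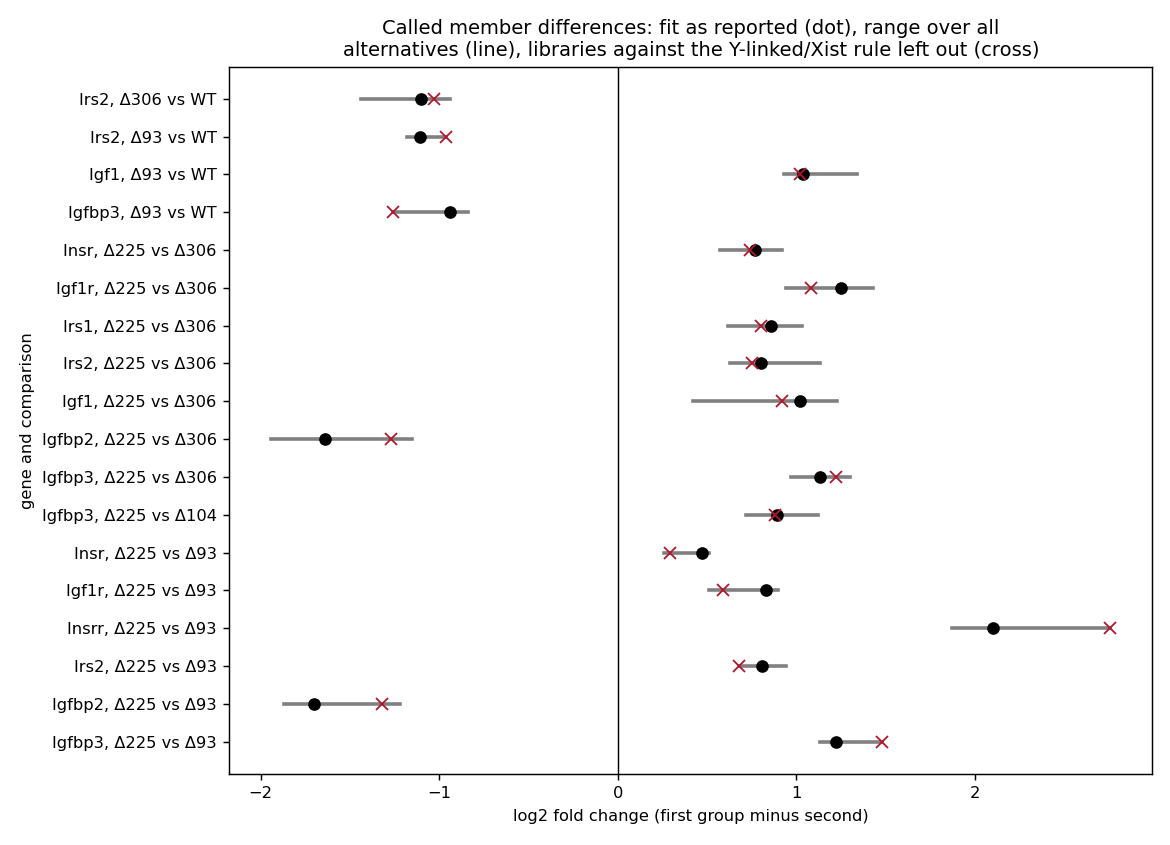
The 18 called differences (vertical axis, gene and comparison) on the log2 scale (horizontal axis). The dot is the fit as reported, the line is the range over all alternatives, and the cross leaves out the 9 libraries against the XY label. No line reaches 0, and the widest, Insrr in Δ225 against Δ93, runs from 1.87 to 2.76.

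The comparison of Meis1 KO with WT addresses what the loss of Meis1 changes, and none of the 10 genes was called in it. By edgeR 0 of 10 were called, against 1.80% of 16791 genes, and DESeq2 also called 0, where it called 1553 of all genes. Unadjusted, 1 of the 10 had a p under 0.05, against 19.3% of all genes. Their median log2 fold change was 0.03, with all genes at 0.00. Irs2 had 58.1, 52.8 and 55.1 CPM in WT and 41.5, 44.3, 52.4 and 47.1 CPM in the KO, where every KO library lay below WT (−0.26, SE 0.09, adjusted p 0.176). Libraries did not overlap at 19.7% of all genes. Igfbp3 had 261, 194 and 238 CPM in WT and 394, 241, 283 and 277 CPM in the KO (0.37, adjusted p 0.293). Igfbp2 had 224, 108 and 94.6 CPM in WT and 159, 132, 145 and 131 CPM in the KO. WT replicate 1, whose germ-cell sum in this table was 17.5 CPM, decided several of these values. Without it Igfbp2 was called higher in the KO by 0.49 (adjusted p 0.0178), Irs1 by 0.44 (adjusted p 0.0402) and Insr by 0.36 (adjusted p 0.0278). In that fit 2204 of all genes were called, against 303 with all libraries.

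The rest of the pathway was described by a list of 53 other genes, of which 52 were tested in the deletions. In Δ306 against WT 7 of 52 were called, 1 higher and 6 lower, where 6.43% of all genes were, and the list's median was −0.37 where all genes had 0.08. In Δ93 it was 11 of 52, 4 higher and 7 lower, where 14.1% of all genes were, with medians of −0.11 and 0.06. By edgeR 0 were called in Δ225 and in Δ104 against WT, where 13 and 10 had an unadjusted p under 0.05, against 16.1% and 15.7% of all genes. Without the libraries against the XY label only 46 and 4 of all genes were called in Δ306 and Δ93. Igfbp7, a binding protein of low affinity for IGFs, fell from 120 ± 9.05 CPM in WT (n = 3) to 15.8 ± 3.47 in Δ306 (n = 3) and 19.0 ± 9.12 in Δ93 (n = 6). Its log2 fold changes were −2.92 (SE 0.67, adjusted p 0.0147) and −2.65 (SE 0.52, adjusted p 0.00274). Stc1 and Stc2 encode stanniocalcins, which inhibit the PAPP-A proteases that cleave Igfbp4 and Igfbp5. Stc1 fell from 42.3 ± 2.08 CPM to 11.4 ± 2.32 in Δ306 (−1.89) and 10.4 ± 3.94 in Δ93 (−2.02). Stc2 fell from 65.0 ± 11.5 CPM to 14.8 ± 2.52 in Δ306 (−2.14) and 18.1 ± 5.67 in Δ93 (−1.84).

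Of 9 adaptor genes in the list, 2 were called lower in Δ306, and in Δ93 it was 3 lower and 1 higher. Sh2b2, an adaptor of the insulin receptor, fell by 1.78 in Δ306 and 1.54 in Δ93, and Grb14, which inhibits that receptor's kinase, by 1.54 and 1.48. Grb10, its relative, fell by 0.80 in Δ93. Foxo4, a transcription factor that Akt holds out of the nucleus, fell by 0.76 and 0.65. Pik3r3, a regulatory subunit of phosphoinositide 3-kinase, was the gene of the list that rose in both, by 1.55 in Δ306 (adjusted p 0.0219) and 2.17 in Δ93 (adjusted p 0.00110). It stood at 27.2 ± 7.20 CPM in WT, 79.7 ± 12.8 in Δ306 and 122 ± 37.1 in Δ93. In Δ93 the other genes that rose were Igfbp6 (0.98), the kinase Pdpk1 (0.49) and the adaptor Irs4 (2.78), which had 0.181 CPM in WT and 1.27 in Δ93 and is named because the count is small. The cell type markers given above moved in the same comparisons.

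**Figure D5:**
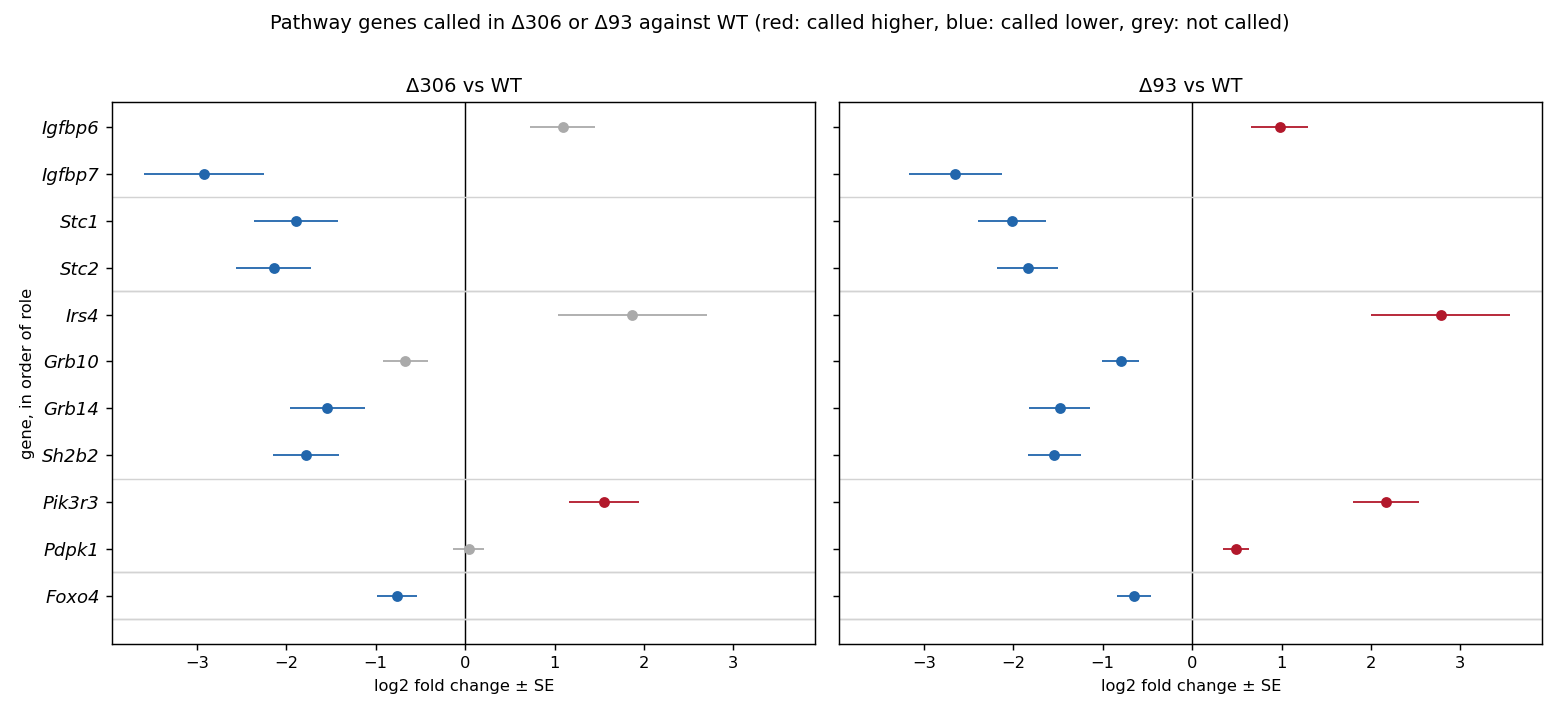
Log2 fold changes ± SE (horizontal axes) of the 11 pathway genes outside the set that were called in Δ306 or Δ93 against WT (vertical axis, in order of role). Blue points were called lower, red points higher and grey points were not called in that comparison. Igfbp7, Stc1, Stc2, Grb14, Sh2b2 and Foxo4 are blue and Pik3r3 is red in both panels.

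Between deletions, 10 of the 52 genes were called in Δ225 against Δ306, each of them higher in Δ225, where 13.2% of all genes were called. The higher genes included Igfbp7 (2.54), Stc1 (2.23), Stc2 (1.35), Foxo1 (1.13, a transcription factor inactivated by Akt) and the catalytic subunit gene Pik3ca (0.71). Sh2b2 (1.31), Grb14 (1.17) and Rictor (0.64), a part of an mTOR complex, were higher too. Against Δ93, 12 were higher and 3 lower in Δ225, where 20.8% of all genes were called. With the libraries against the XY label left out, 0 and 2 of all genes were called in these 2 comparisons, so that all 10 calls against Δ306 and most of those against Δ93 were lost. Stc1 (2.37), Igfbp7 (2.27), Pappa (1.91, the PAPP-A protease), Pik3cd (1.2), Grb14 (1.12), Sh2b2 (1.06), Stc2 (1.05), Grb10 (0.79) and Foxo1 (0.73) were among the higher genes. Pik3r3 (−1.39) was lower, and Phlpp1 (−0.45) and Pdpk1 (−0.35) were lower too, named because they complete the count. In Meis1 KO against WT, where 1.80% of all genes were called, it was 1 of 51, Sh2b2, which fell by 0.55 (SE 0.10, adjusted p 0.0449). The insulin gene Ins2 was at 0.151 CPM in WT and Ins1 was not tested.

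For each gene the closest patterns across the 22 libraries of the deletion table were listed by Pearson's r of log2 CPM over 14089 genes. The libraries share genotype, depth and cell composition, so these values are descriptions. Igf1r was closest to Foxn3 (0.97), Afap1 (0.95) and Lifr (0.95), and Insr to Lpp (0.95), Igf1r (0.94) and Afap1 (0.93). Irs1 was closest to Zfp652 (0.96), Nf1 and Lpp (both 0.93). Irs2 was closest to Spry4, a feedback inhibitor of receptor tyrosine kinase signalling, Prickle1 and Gli2 (0.92 each). Igfbp3 was closest to Cd36 and Cacng7 (0.93 each) and Fhl2 (0.92), and Igfbp2 to Coq8b (0.97), Slc7a4 and Rasa4 (0.96 each). Igfbp4 was closest to Dctn2 and Itm2c (0.97 each) and Pck2 (0.96), and Igfbp5 to Kif1b (0.88), Aff4 and Cux1 (0.87 each). Igf1 was closest to Uggt2 (0.91), Dock11 and Atf2 (0.87 each), and Insrr to Ncs1 (0.84), Kdelr3 and Pdlim7 (0.83 each).

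The authors' deposited table gave 100 comparisons of these 10 genes among WT and the deletions, and 25 had an adjusted p under 0.05 there. All 18 differences called here were among the 25 and had the same sign. The other 7 were not called here. In the authors' deposited table these were, in WT over a deletion, Igf1 over Δ225 (−1.57, adjusted p 0.00155), Igfbp3 and Igf1r over Δ306 (0.84 and 0.78, adjusted p 0.0227 and 0.0359) and Insrr over Δ93 (1.83, adjusted p 0.0287). Between deletions, the authors' deposited table had Insrr in Δ225 over Δ306 (2.17, adjusted p 0.0134) and, in Δ306 over Δ104, Igf1r (−1.05, adjusted p 0.00614) and Irs1 (−0.86, adjusted p 0.0251).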

How the data were processed

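Raw gene counts come in 3 tables from the authors, as whole numbers with unequal library totals. The submitters' processing notes name the build mm10, STAR (version 2.7.10a for WT and Δ306, where featureCounts and Subread are also named) and DESeq2. The labels' protocols name a stranded poly(A) kit. The authors also deposited log2 fold changes and adjusted p-values per comparison, in the column layout of DESeq2 per the file headers.

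The tests used edgeR 4.0.16 under R 4.3.3, with filterByExpr, TMM scaling, the quasi-likelihood F-test and Benjamini-Hochberg adjustment. The 22 libraries of the deletion table were fitted together (22941 genes, 17 residual degrees of freedom) and the Meis1 table apart (16791 genes, 5). CPM use TMM-scaled library sizes. SE is the log2 fold change over the square root of F. Levels are not compared between the tables, which were counted separately, except for the shared WT libraries in the last paragraph. Both hold the same WT libraries, and the authors' table of WT and Δ306 has the same counts for WT as the Meis1 table at 31053 genes. Pearson's r used a prior count of 2. Genes named were all 10, Fgf9, Meis1, called pathway genes with a mean CPM of at least 1 (at most 10 per comparison), the 3 closest patterns and up to 4 markers per list; a few further genes are not reported here. Markers of endothelium, macrophages, blood and muscle were also summed. The members and lists were chosen with earlier results of these data known. Alternatives were DESeq2 1.42.0, RLE or no composition factor, no filter, an adjusted p under 0.01, a replicate block, only the groups compared, the table of WT and Δ306, each replicate left out, and the libraries against the XY label left out. Leaving out WT replicate 1 with Δ104 replicate 3, or Δ225 replicates 1 to 3, was added after seeing the data. The code was tested on simulated data. Of 2-fold changes against WT put into these data, 24% were called in Δ306, 48% in Δ225, 34% in Δ104, 48% in Δ93 and 73% in Meis1 KO. An uncalled difference is therefore not a sign of equal levels. Comparisons between deletions were not simulated.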

Additional observations from a re-analysis of the deposited data

Results flagged for a closer look

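Of 40 groups of 4 to 6 libraries examined, 3 held a library far from the others by Dixon's criterion, where chance gives about 1 in 20. Igf1r in Δ93 replicate 1 was at 151 CPM, with the next library at 117. Irs1 in Δ225 replicate 3 was at 83.6 CPM, with the next at 57.2, and this library also held the highest sum of muscle markers, 1656 CPM. Igf1 in Δ104 replicate 4 was at 44.6 CPM, with the next at 89.5. What part the muscle markers have in the Irs1 value was not tested.

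The 14 called differences between deletions are also differences between 2 deletions' effects against the same WT. They are the same contrasts as in the report, where 13.2% (Δ225 against Δ306), 20.8% (against Δ93) and 0.645% (against Δ104) of all genes were called. Δ225 exceeded Δ306 in Insr (0.77), Igf1r (1.25), Irs1 (0.86), Irs2 (0.80), Igf1 (1.02) and Igfbp3 (1.13) and had less Igfbp2 (−1.64). It exceeded Δ93 in Insr (0.47), Igf1r (0.83), Insrr (2.10), Irs2 (0.81) and Igfbp3 (1.22) and had less Igfbp2 (−1.70). It exceeded Δ104 in Igfbp3 (0.89).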

How the results depend on the processing

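None of the 18 called differences changed sign under any alternative run, and none was called under every one. Leaving out the 9 libraries against the XY label ended all 18 calls, so that 0 members were called in each of Δ306, Δ93 against WT and Δ225 against Δ306, Δ104 and Δ93. Only 46 and 4 of all genes were then called in Δ306 and Δ93 against WT, with fewer samples. The 9 differences that stayed called whichever library was left out were Irs2 and Igfbp3 in Δ93 against WT, Igf1r and Igfbp3 in Δ225 against Δ306, and Igf1r, Insrr, Irs2, Igfbp2 and Igfbp3 in Δ225 against Δ93.

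In Δ306 against WT 1 member was called. It was 3 with DESeq2, 2 with RLE, 0 at an adjusted p under 0.01, 3 in a fit of the 2 groups alone, 4 in the table of WT and Δ306 only, 0 without the libraries of fewest germ-cell counts, and 0 to 2 without single libraries. In Δ225 against WT (0 called) it was 1 with DESeq2 and 0 to 1 without single libraries, in Δ104 against WT (0) 0 to 1, and in Δ93 against WT (3) 5 in a fit of the 2 groups alone. In Δ225 against Δ306 (7) it was 2 at an adjusted p under 0.01 and 2 to 7 without single libraries. In Δ225 against Δ104 (1) it was 0 without the filter, at an adjusted p under 0.01, in a fit of the 2 groups alone and without the libraries of fewest germ-cell counts, and 0 to 1 without single libraries. In Δ104 against Δ306 (0) it was 2 with DESeq2 and 0 to 2 without single libraries, and in Meis1 KO against WT (0) it was 0 to 3, where Igfbp2 went from −0.00 to −0.24 without WT replicate 3 and to 0.49 without WT replicate 1. Over all genes, DESeq2 called 2717 where edgeR called 1474 in Δ306 against WT, 813 against 48 in Δ225, 611 against 14 in Δ104, and 1553 against 303 in Meis1 KO against WT. Where the alternative left out no samples or genes, the cause was not tested.

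Deviations from the group means were correlated between same-numbered libraries, and in no comparison did every pair have an r above 0.1 (−0.44 to 0.53). Every pair was positive in Δ306 against WT (0.08 to 0.34), Δ225 against Δ104 (0.10 to 0.37) and Δ93 against Δ104 (0.09 to 0.14). Some pairs had a positive r, so it cannot be told whether the numbers pair some of the samples. With a replicate block 1638 and 471 of all genes were called in Δ225 and Δ104 against WT, where 48 and 14 were called without it. With the block 3 members were called in Δ306 against WT, 3 in Δ225 against WT, 1 in Δ104 against WT and 0 in Δ225 against Δ104. Depth limits Insrr, with at most 90 counts per library.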

Other observations

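Igf2, the fetal IGF ligand and no member of the set, had a mean of 149 ± 55.0 CPM over the WT libraries (SD, n = 3), 237 ± 68.9 in Δ306, 189 ± 151 in Δ225, 287 ± 126 in Δ104 and 251 ± 74.5 in Δ93. Its libraries overlapped WT in all 4 deletions and no difference was called, with adjusted p of 0.331 to 0.730. In Δ225 it stood at 491 CPM in replicate 1 and at 87.8 to 167 CPM in the others. In Meis1 KO it was at 399 ± 52.6 CPM (n = 4) against 222 ± 81.6 in WT, a log2 fold change of 0.85 that was not called (SE 0.25, adjusted p 0.125), although every KO library lay above every WT library.

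The same 3 WT libraries gave different levels in the 2 deposited tables. Irs1 was at 46.4, 35.7 and 37.2 CPM in the deletion table and at 33.7, 25.7 and 25.4 CPM in the Meis1 table. The other 9 genes of the set were slightly higher in the Meis1 table, as with Igfbp3 at 246, 184 and 229 CPM against 261, 194 and 238 CPM.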
